A study of Mus musculus with 12 samples.

Results

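The comparison is between mice given psilocybin and mice given MDMA after the same chronic stress, and it rests on 6 of the 12 RNA-seq libraries of the series, 3 from each drug. The members are the libraries titled as psilocybin 1 to 3 and MDMA 1 to 3, and every Ensembl gene that reached 5 CPM (read counts scaled to each library's total) in 3 of these 6 libraries was tested, which left 12699 of 55401 identifiers. All 6 came from the meninges of male C57BL/6J mice that had 18 days of chronic restraint and then the drug, with tissue taken 24 hours after it. The psilocybin and MDMA groups therefore share the stress and differ in the drug; the sources used here give no doses or routes. A magnetic kit for monocyte isolation gave the cells, and 5 ng of their total RNA went into each library. The series also holds 3 libraries from stressed mice given vehicle, whose values are given as a background only, and 3 from unstressed mice, which are not used here. No label says that the 3 libraries of a group came from separate animals, so each p-value measures the spread between these libraries, which may be technical.

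Psilocybin is a prodrug of psilocin, a tryptamine that activates serotonin receptors of the 5-HT2 family, and MDMA is a substituted amphetamine that releases serotonin and other monoamines through their transporters. The meninges are the membranes around the brain; they hold fibroblasts, vessels, macrophages and other leukocytes, lie against skull bone whose marrow supplies myeloid cells, and are taken close to the choroid plexus, the epithelium that secretes cerebrospinal fluid. Monocytes are circulating phagocytes that mature in marrow, and the classical kind carries the surface protein Ly6C and the chemokine receptor CCR2.

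The 6 libraries held between 2601848 and 5136953 counts, and the genes tested took 98.1% to 98.79% of them. Values are given below in the order of replicates 1, 2 and 3. MDMA replicate 2 stood apart: its correlations across genes with the other 5 libraries (log2 CPM) lay between 0.739 and 0.795, whereas psilocybin replicate 3 and MDMA replicate 1 correlated at 0.966, more closely than any pair within a drug group. That library also had 7.88% of its counts on the mitochondrial genome, against 3.92% to 5.01% in the other 5, and 19491 genes with a count, against 22236 to 24122. The first principal component, with 53.9% of the variance, separated it from the other 5. Results that depend on this library are given with and without it.

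**Figure D1:**
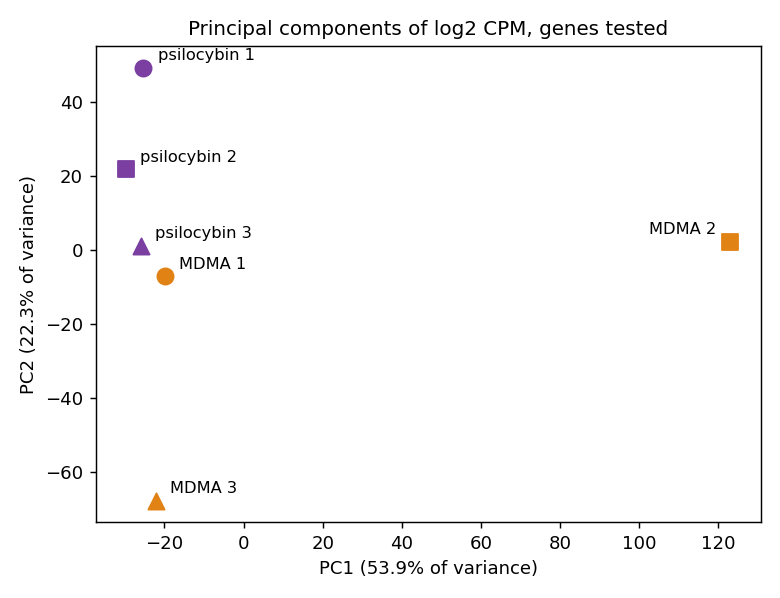
First and second principal components of log2 CPM over the genes tested, in arbitrary units; each point is 1 library, purple for psilocybin and orange for MDMA, and symbols give the replicate number. MDMA replicate 2 lies alone on the first component (53.9% of the variance), and psilocybin replicate 3 lies next to MDMA replicate 1.

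The labelled cell type was checked against its markers. Transcripts of classical monocytes were present in every library but took a small part of the counts: the 16 markers tested of 18 listed summed, with the others, to 490.2, 449 and 1381 CPM after psilocybin and 2019, 1137 and 2592 CPM after MDMA. The 28 markers of choroid plexus epithelium summed to 124102, 70227 and 72136 CPM after psilocybin and 48392, 35154 and 26424 CPM after MDMA. Counts on choroid plexus markers exceeded those on monocyte markers in all 6 libraries, over lists of different size. A bulk library cannot tell fewer cells of a type apart from less RNA per cell. The part that these markers play in the differences below was not tested.

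No gene passed an adjusted p of 0.05 in edgeR's quasi-likelihood test (0 of 12699, 0%). At an unadjusted p under 0.05 it listed 879 genes (6.92%), of which 557 (4.39%) were higher after MDMA and 322 (2.54%) lower. The smallest adjusted p was 0.182, for Bglap, and the next was 0.677. limma voom also called 0 genes, with 885 at an unadjusted p under 0.05, and DESeq2's Wald test called 21 (0.165%), 15 of them higher after MDMA (0.118%) and 6 lower (0.0472%). Of those 21 genes, 9 were still called by DESeq2 without MDMA replicate 2. All 3 MDMA libraries lay above all 3 psilocybin libraries at 1090 genes (8.58%) and below them at 1005 (7.91%). The precision was limited: the median standard error of a log2 difference was 0.45, and the 95% interval lay within 1 log2 unit either way at 18.3% of genes and within 2 at 75.8%. A missing call is therefore not evidence that the drugs acted alike. The median log2 difference of all genes, MDMA minus psilocybin, was 0.07, and every log2 value below has that direction. The genes described next are those with the smallest p in each direction, none past the threshold of edgeR, and lists of known function.

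**Figure D2:**
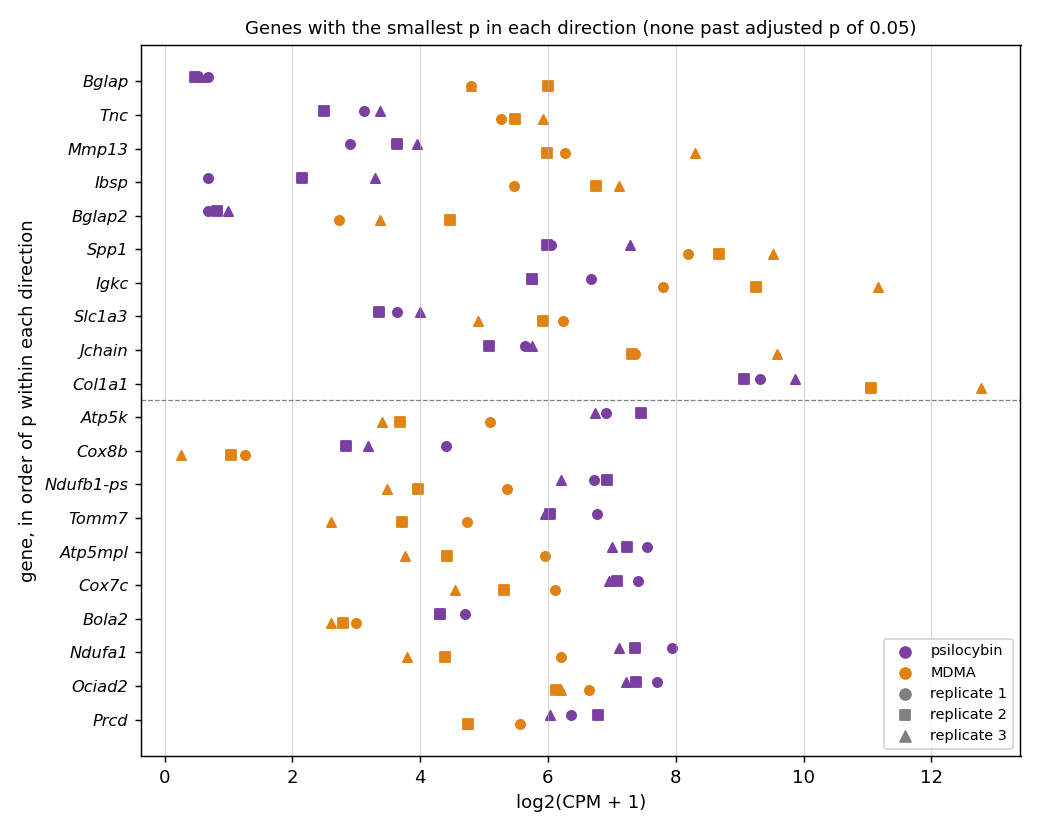
Values of the 10 genes with the smallest p in each direction, as log2(CPM + 1); each point is 1 library, purple for psilocybin and orange for MDMA, and symbols give the replicate number. In all 20 genes the groups do not overlap, but the genes were chosen by p from these same libraries, so this is no support. Bglap and Bglap2 reached the 5 CPM filter only in MDMA libraries and Cox8b only in psilocybin libraries. None of the 20 passed an adjusted p of 0.05 in edgeR.

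Genes of mineralising bone stood highest after MDMA. Osteoblasts build bone from a collagen matrix and deposit the proteins that bind its mineral. All 10 tested members of a list of 16 osteoblast genes had a higher fitted level after MDMA, 8 of them with no overlap between the groups (against 8.58% of all genes) and 8 at an unadjusted p under 0.05 (against 4.39%). The median log2 difference of the 10 was 2.38, against 0.07 over all genes, and it stayed between 1.49 and 2.66 when any 1 library was left out. The list summed to 1074 ± 339 CPM after psilocybin and 4874 ± 3277 CPM after MDMA (mean ± SD, n = 3), with 405, 1061 and 1903 CPM in the vehicle libraries. Col1a1 and Alpl are also on the fibroblast list. Col1a1 alone held most of this sum in both drug groups, with a mean of 700 CPM after psilocybin and 3734 CPM after MDMA. Bglap and Bglap2 reached the 5 CPM filter only in MDMA libraries and so had to differ, which makes these counts and this median a description and no support. Of the other 8 genes, 6 did not overlap and the median was 2.01.

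Bglap, which encodes osteocalcin, a hormone and matrix protein secreted by osteoblasts, was the gene with the smallest p. It stood at 0.592, 0.384 and 0.49 CPM after psilocybin, from 2, 1 and 2 counts, and at 26.9, 63.3 and 26.7 CPM after MDMA, from 96, 181 and 137 counts. Every MDMA library was far above every psilocybin library, and the vehicle libraries were at 0, 0 and 0.512 CPM. The log2 difference was 6.29 ± 0.71 (SE; 95% interval 4.67 to 7.92), with an adjusted p of 0.182 in edgeR and 4.7e-09 in DESeq2. Bglap lies on the minus strand of chromosome 3 at 88383501 to 88384464 (GRCm38, as in GENCODE vM21), beside the near-copy Bglap2 (88377736 to 88378699), so the split of reads between them is uncertain. Bglap2 showed 0.592, 0.769 and 0.981 CPM after psilocybin and 5.61, 21 and 9.34 CPM after MDMA. Both copies were thus under 1 CPM in each psilocybin library and above 5 CPM in each MDMA library.

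The promoter of Bglap is shown because osteocalcin is a textbook target of RUNX2, the transcription factor that directs osteoblast formation. The window is from RefSeq (GRCm38.p6), 250 bases before to 50 after the gene's start, at chr3:88384417-88384716 on the minus strand, written 5′ to 3′, and the capitals mark the single match to TGTGGT, the core RUNX motif, searched on both strands and found here on the opposite one.
Bglap: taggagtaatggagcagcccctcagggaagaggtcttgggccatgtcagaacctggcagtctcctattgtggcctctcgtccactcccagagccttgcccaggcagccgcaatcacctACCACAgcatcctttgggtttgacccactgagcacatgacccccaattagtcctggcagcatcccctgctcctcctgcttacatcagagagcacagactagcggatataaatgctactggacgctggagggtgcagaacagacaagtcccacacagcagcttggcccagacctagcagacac
The match began at base 119 of the 300-base window. This motif, chosen after the gene was seen, was found in 5 of 13 windows of the osteoblast list (38.5%) and in 16.8% of all 32851 windows; it was absent from the window of Ibsp. A match is a description of letters and not a binding site.

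Other secreted proteins of bone followed the same order. Ibsp, bone sialoprotein, which nucleates mineral, stood at 0.592, 3.46 and 8.83 CPM after psilocybin and at 43.5, 107 and 138 CPM after MDMA (log2 difference 4.50 ± 0.82, 95% interval 2.64 to 6.37). Mmp13, a collagenase of growing and remodelling bone, stood at 6.51, 11.5 and 14.5 CPM and at 76.0, 62.2 and 316 CPM (3.79 ± 0.67, interval 2.27 to 5.31). Neither gene overlapped between the groups, and MDMA replicate 3 held the top value of each. Spp1, osteopontin, a phosphoprotein of bone that macrophages also make, stood at 65.1, 62.3 and 155 CPM and at 292, 407 and 731 CPM (2.37 ± 0.48, interval 1.27 to 3.47). Sp7, the osteoblast transcription factor osterix, was lower in level but again did not overlap, with 4.14, 3.46 and 5.64 CPM against 10.7, 9.44 and 21.4 CPM. Vdr, the vitamin D receptor, named after its values were seen, stood at 0.888, 1.92 and 2.45 CPM and at 6.17, 15.4 and 17.5 CPM. Like Bglap, Vdr reached the 5 CPM filter only in MDMA libraries and so had to differ, which makes its values no support. Of 2 genes of the osteocyte, the cell embedded in bone, Mepe reached at most 0.584 CPM in the 6 libraries. Dmp1 overlapped between the groups, at 0.888, 0.769 and 7.35 CPM against 3.64, 5.6 and 8.76 CPM (0.99 ± 0.90). Alpl, the alkaline phosphatase of osteoblasts that meningeal fibroblasts also express, overlapped between the groups at 180, 183 and 278 CPM against 292, 211 and 493 CPM.

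Fibrillar collagen and its partners were also higher after MDMA. Of 35 tested genes of collagens, matrix glycoproteins and their enzymes, 33 had a higher fitted level after MDMA and 20 did not overlap between the groups in that direction (against 8.58% of all genes), with 1 lying wholly in the other (against 7.91%); the median log2 difference was 0.84 and ranged from 0.65 to 1.05 with 1 library left out. The list summed to 9713 ± 2354 CPM after psilocybin and 18699 ± 4516 CPM after MDMA (n = 3). Col1a1, the main chain of type I collagen in bone and connective tissue, stood at 636, 534 and 930.1 CPM and at 2095, 2126 and 6982 CPM (2.42 ± 0.50, interval 1.27 to 3.56). Its partner chain Col1a2 stood at 787, 357 and 854 CPM and at 1633, 3185 and 2991 CPM. Each MDMA library held more of both chains than any psilocybin library. Tnc, the matrix glycoprotein tenascin C, stood at 7.7, 4.61 and 9.32 CPM and at 37.3, 43.7 and 59.6 CPM (2.72 ± 0.42, interval 1.75 to 3.68), and it had the second smallest p of all genes. The type IV chains of basement membranes differed by 0.71 (Col4a1, without overlap) and 0.43 (Col4a2, overlapping). Col9a3, which is also on the choroid plexus list, lay wholly below the psilocybin range, at 161, 312 and 151 CPM against 138, 61.9 and 119.9 CPM (-0.96 ± 0.38).

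Markers of leptomeningeal fibroblasts, the cells of the inner membranes, gave a mixed picture. Of 24 tested, 21 had a higher fitted level after MDMA, 7 without overlap (against 8.58% of all genes), and the median log2 difference was 0.67. The list includes both type I collagen chains and 3 of its members pointed the other way. Dcn, the proteoglycan decorin, stood at 1028, 441 and 1085 CPM against 1395, 1886 and 1576 CPM, and Foxc2, a transcription factor of meningeal mesenchyme, at 15.4, 12.7 and 22.1 CPM against 37.3, 56.7 and 39.3 CPM. Lum and Slc47a1, a matrix proteoglycan and a transporter of these fibroblasts, overlapped between the groups. The growth factor Igf2 stood at 16.9, 16.5 and 19.6 CPM and at 19.9, 24.5 and 19.1 CPM, a log2 difference of 0.31 with an interval from -0.57 to 1.19.

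Antibody genes were high in MDMA libraries, each in its own pattern. Plasma cells and B cells make immunoglobulin from a heavy chain and a light chain, and the J chain joins secreted IgM or IgA. Igkc, the kappa light chain constant gene, stood at 101, 53.0 and 52.7 CPM after psilocybin and at 222, 612 and 2288 CPM after MDMA (3.91 ± 0.80, interval 2.08 to 5.74). Ighm, the IgM heavy chain, stood at 65.4, 34.2 and 139 CPM and at 183, 695 and 3046 CPM (4.03 ± 0.98), and Jchain at 49.1, 32.7 and 52.7 CPM and at 163, 159 and 767 CPM (3.0 ± 0.62, interval 1.58 to 4.42). All 3 genes were above the psilocybin range in each MDMA library, with the top value in MDMA replicate 3. The lambda constant gene Iglc1 did not follow them, at 118, 94.1 and 2.34 CPM after MDMA against 1.78, 1.15 and 6.62 CPM, and Ighg3, an IgG heavy chain outside the tested genes, reached 382 CPM in MDMA replicate 2 and 0 in MDMA replicate 3. Genes of the B cell surface did not share the pattern: Cd79a stood at 1.18, 3.07 and 15 CPM against 8.69, 3.5 and 8.76 CPM, and Ms4a1, which encodes CD20, at 4.44, 7.3 and 28.4 CPM against 8.41, 0 and 13.6 CPM. Of 13 tested B lineage genes, 3 did not overlap (against 8.58% of all genes), and these were the antibody genes named here. Reads of immunoglobulin constant genes can be split among near-copies and segments, so these values are uncertain.

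Myeloid genes had higher fitted levels after MDMA, with much overlap. All 16 tested classical monocyte genes and all 20 tested neutrophil genes had positive log2 differences, with medians of 1.44 and 1.68; 3 and 1 of them did not overlap (against 8.58% of all genes). In the summed CPM of both lists psilocybin replicate 3 lay above MDMA replicate 2, the lowest of its group. Without MDMA replicate 2, 12 of the 16 and 14 of the 20 genes lay above all psilocybin libraries, against 19.5% of all genes. Ly6c2, which marks classical monocytes, stood at 9.47, 5.77 and 21.3 CPM and at 35.9, 18.5 and 50.4 CPM (1.51 ± 0.55, interval 0.24 to 2.77). Ccr2, the receptor by which monocytes leave marrow, stood at 25.5, 18.4 and 73.5 CPM and at 54.1, 57.7 and 121 CPM (1.01 ± 0.56, interval -0.26 to 2.27). Lyz2, myeloid lysozyme, stood at 106, 101 and 468 CPM and at 661, 373 and 745 CPM. In each of these 3 genes psilocybin replicate 3 lay above at least 1 MDMA library. Cx3cr1, which marks non-classical monocytes and microglia, was high in a single library, with 55.8 CPM in MDMA replicate 1 against 2.45 and 15.4 CPM in the other MDMA libraries and 4.74, 3.46 and 8.09 CPM after psilocybin. Nr4a1, a nuclear receptor needed for non-classical monocytes and an early response gene of many cells, stood at 487, 446 and 634 CPM against 642, 315 and 619 CPM (0.01 ± 0.30, interval -0.67 to 0.70).

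Granule genes of developing neutrophils, which are made in marrow, overlapped between the groups at Ngp, Mpo and Ltf. Ngp stood at 31.1, 69.6 and 387 CPM after psilocybin and at 1022, 298 and 947 CPM after MDMA (2.21 ± 0.85, interval 0.26 to 4.16). Mpo, myeloperoxidase, stood at 6.22, 21.1 and 78.9 CPM and at 138, 20.6 and 479 CPM, and Ltf, lactoferrin, at 7.99, 18.1 and 86.5 CPM and at 287, 82.5 and 435 CPM. S100a8, a calprotectin subunit of mature neutrophils, stood at 25.2, 37.3 and 268 CPM and at 497, 47.9 and 116 CPM, so that its log2 difference of 0.97 became -0.43 without MDMA replicate 1. Ly6g, which defines mature neutrophils, was at or near 0 in all 6 libraries (at most 0.584 CPM). Windows of the neutrophil list held TTGCNNAA, a C/EBP motif, in 9 of 25 cases (36%, against 10.8% of all 32851 windows) and GAGGAA, an ETS motif of PU.1, in 16 of 25 (64%, against 28.3%), on either strand. The windows are of 24 listed genes, tested or not. The C/EBP motif was also in 23.1% of osteoblast windows and 23.1% of oxidative phosphorylation windows, and the ETS motif in 34.5% of choroid plexus windows. Other motifs were searched and are not given here. The median log2 difference of the list ran from 1.27 to 3.63 with 1 library left out. Cell division genes, which are active in marrow precursors, were higher in the same libraries: 32 of 33 tested had a positive log2 difference, 7 without overlap (against 8.58% of all genes), with a median of 1.07. Of these, Bub1 reached the 5 CPM filter only in MDMA libraries and so had to differ. Among the other 32 genes, 31 were higher and 6 did not overlap, with a median of 1.05. Top2a, the topoisomerase of dividing cells, stood at 7.7, 6.92 and 39.7 CPM and at 55.2, 47.2 and 110.2 CPM.

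Among macrophage and complement genes, several receptors did not overlap between the groups, but most genes of both lists did. C5ar1, the receptor of the anaphylatoxin C5a, stood at 2.66, 3.07 and 4.66 CPM after psilocybin and at 10.7, 17.1 and 16 CPM after MDMA (2.11 ± 0.54, interval 0.88 to 3.34). C3ar1, the matching receptor of C3a, stood at 4.74, 2.31 and 5.39 CPM and at 16.3, 23.4 and 9.73 CPM. Mrc1, the mannose receptor of border macrophages, stood at 11, 5.0 and 28.2 CPM and at 68.1, 75.5 and 30.4 CPM (2.03 ± 0.65). Of 14 border macrophage genes tested, 10 were fitted higher after MDMA and 4 lower. Only 2 of the 14, Mrc1 and Igfbp4, did not overlap (against 8.58% of all genes). The values of C3ar1 and Mrc1 were thus separate, whereas those of C1qa, C1qb and C1qc, the recognition subunits of complement, overlapped. The separation of C5ar1 is no support, since it reached the 5 CPM filter only in MDMA libraries. Of 19 complement genes tested, 17 were fitted higher after MDMA, 6 without overlap (against 8.58% of all genes), and Clu and Cd59a, both inhibitors of the terminal complex, lay wholly below (against 7.91%). Both C5ar1 and Itgam, an integrin chain also on the monocyte list, reached the filter only in MDMA libraries and so had to differ. Of the other 17 complement genes, 4 lay wholly above, as did 2 of the other 15 monocyte genes. Il1b, interleukin 1 beta, stood at 5.03, 5.38 and 18.6 CPM and at 26.4, 21 and 17.5 CPM, and Tnf was under the filter. H2-Ab1, a class II antigen presentation gene, stood at 114, 55.3 and 239.5 CPM and at 276, 163 and 198 CPM; all 9 tested class II genes overlapped.

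**Figure D3:**
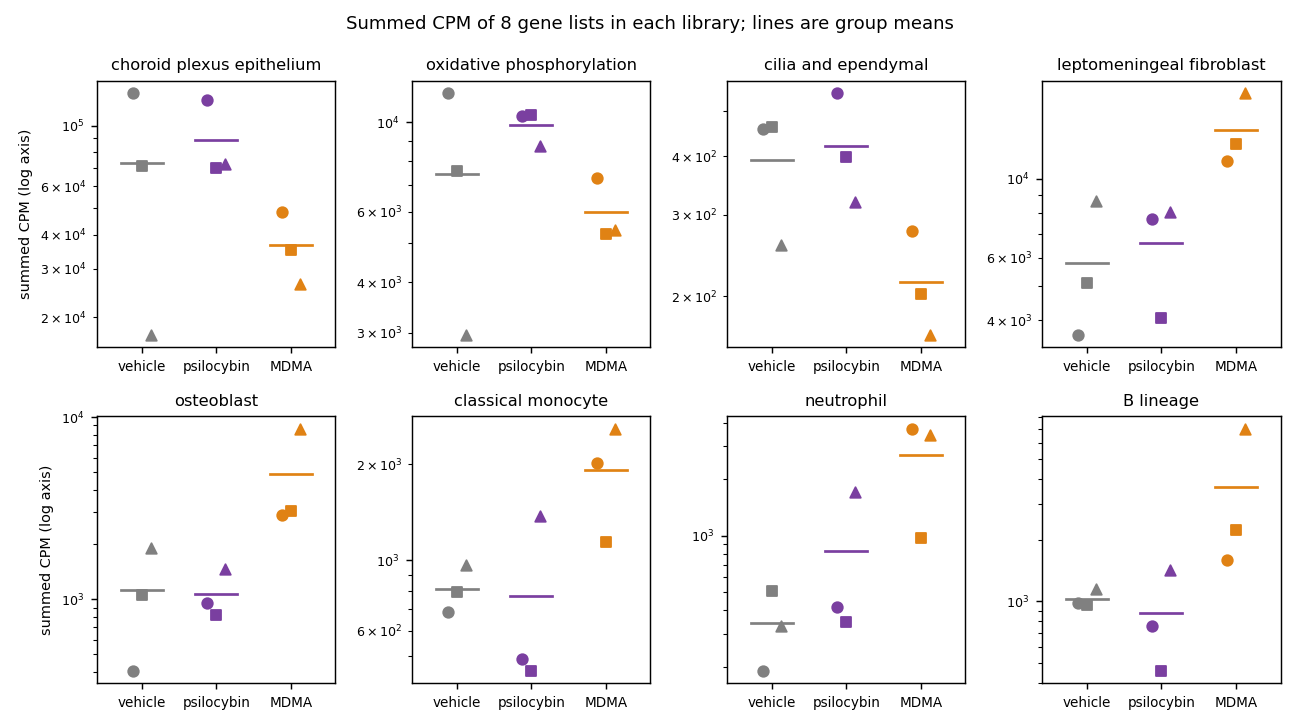
Summed CPM of 8 gene lists in each library on log axes; each point is 1 library, lines are the mean of 3, and grey points are the sparse vehicle libraries, which were not part of the test. Choroid plexus, oxidative phosphorylation and cilia lists lie lower in all 3 MDMA libraries than in all 3 psilocybin libraries. Fibroblast, osteoblast and B lineage lists lie higher. In both drug groups Col1a1 holds most of the osteoblast sum. Of 13 tested B lineage genes, only the antibody genes Igkc, Ighm and Jchain did not overlap.

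Markers of choroid plexus epithelium lay lower after MDMA. Of its 28 markers, all tested, 25 had a lower fitted level after MDMA and 19 lay wholly below the psilocybin range (against 7.91% of all genes), with a median log2 difference of -0.89 that ran from -1.10 to -0.66 with 1 library left out. Without MDMA replicate 2, 21 of the 28 lay wholly below, against 10.4% of all genes. The list summed to 88822 ± 30568 CPM after psilocybin and 36657 ± 11061 CPM after MDMA (n = 3); the vehicle libraries held 131246, 70919 and 17185 CPM. Ttr, transthyretin, the thyroxine carrier that choroid plexus secretes, stood at 59666, 35164 and 31272 CPM and at 22278, 11575 and 5267 CPM (-1.67 ± 0.54, interval -2.89 to -0.44). Enpp2, the secreted enzyme autotaxin, stood at 53894, 26416 and 33568 CPM and at 20261, 16742 and 16036 CPM (-1.07 ± 0.36). Both lay below the psilocybin range in each MDMA library, as did Kl (the ageing hormone klotho), Clic6 and Cldn2, a claudin of leaky epithelia. Car12, a carbonic anhydrase, stood at 529.6, 393 and 341 CPM and at 233, 112 and 219.6 CPM (-1.16 ± 0.32, interval -1.90 to -0.43), the smallest p of the list. Some markers did not share the pattern: the bicarbonate transporter Slc4a10 stood at 898, 599 and 850.2 CPM and at 889, 1528 and 966 CPM, and Otx2, the transcription factor that specifies this epithelium, overlapped at 197, 307 and 167 CPM against 136, 264 and 169.6 CPM. The pumps and carriers that secrete cerebrospinal fluid were split, with 13 of 23 tested genes lower, 8 of them wholly (against 7.91% of all genes), and a median of -0.16; Atp1b1, a sodium pump subunit, differed by 0.03 ± 0.32.

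Cilia genes lay in the same direction. Of 12 tested, 11 were fitted lower after MDMA and 6 did not overlap (against 7.91% of all genes). Dynlrb2, a dynein light chain of motile cilia, stood at 40.3, 26.5 and 20.8 CPM and at 15.7, 7.69 and 3.5 CPM. Rsph1, a radial spoke protein, stood at 87.6, 43.8 and 43.6 CPM and at 35.9, 14.3 and 16 CPM. Sntn and Mcidas were at 0 in all 6 libraries, and 10 of the 22 listed genes did not pass the filter.

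Nuclear genes of oxidative phosphorylation lay lower after MDMA across the whole list. This pathway passes electrons through complexes I to IV of the mitochondrial inner membrane and makes ATP at complex V. All 33 genes tested had a lower fitted level after MDMA and 28 lay wholly below the psilocybin range (against 7.91% of all genes), with a median log2 difference of -0.81 (from -0.99 to -0.68 with 1 library left out). The list summed to 10355, 10425 and 8740.5 CPM after psilocybin and 7267, 5284 and 5391 CPM after MDMA. The vehicle libraries held 11811, 7555 and 2955 CPM. At an unadjusted p under 0.05, 17 of the 33 were listed, against 2.54% of all genes. None was called by edgeR, and DESeq2 called Ndufa1 of this list. Atp5k, Cox7c, Cox8b and Tomm7, described next with Ndufa1, are not on the list. Atp5k, a small subunit of the ATP synthase of complex V, stood at 119, 174 and 106 CPM and at 33.1, 11.9 and 9.54 CPM (-2.86 ± 0.50, interval -4.00 to -1.73, adjusted p of 0.677 in edgeR and 2.83e-05 in DESeq2). Ndufa1, a complex I subunit, stood at 244, 163 and 138 CPM and at 72.9, 19.9 and 12.8 CPM (-2.37 ± 0.61, interval -3.77 to -0.97). Cox7c, a complex IV subunit, stood at 169, 135 and 123 CPM and at 68.4, 38.8 and 22.4 CPM (-1.70 ± 0.42). In each of these 3 genes every MDMA library lay below the psilocybin range, with MDMA replicate 1 nearest to it. Cox8b, the muscle and fat form of a complex IV subunit, stood at 20.1, 6.15 and 8.09 CPM and at 1.4, 1.05 and 0.195 CPM. It reached the 5 CPM filter only in psilocybin libraries and so had to differ, which makes its values a description and no support. Tomm7, part of the import channel of the outer membrane, stood at 108, 64.6 and 60.8 CPM and at 25.5, 12.2 and 5.06 CPM. The vehicle libraries held 32.0, 17.3 and 6.14 CPM of Tomm7. Some larger subunits overlapped between the groups: Sdha of complex II differed by -0.12 ± 0.25 and Atp5b of complex V by -0.23 ± 0.25 (interval -0.80 to 0.34). Genes of the mitochondrial genome did not follow: 7 of 10 tested were fitted higher after MDMA, with 24248 CPM of mt-Rnr2 in MDMA replicate 2 against 4853 to 9585 CPM in the other 5 libraries, and the median changed sign in 3 of 16 alternative settings.

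The promoter of Atp5k is shown because NRF1 is a known regulator of nuclear genes for respiration. The RefSeq window (GRCm38.p6) lies at chr5:108434350-108434649 on the minus strand, 5′ to 3′. The capitals mark a pair of overlapping matches, 1 on each strand, to GCATGCGC, part of the NRF1 motif.
Atp5k: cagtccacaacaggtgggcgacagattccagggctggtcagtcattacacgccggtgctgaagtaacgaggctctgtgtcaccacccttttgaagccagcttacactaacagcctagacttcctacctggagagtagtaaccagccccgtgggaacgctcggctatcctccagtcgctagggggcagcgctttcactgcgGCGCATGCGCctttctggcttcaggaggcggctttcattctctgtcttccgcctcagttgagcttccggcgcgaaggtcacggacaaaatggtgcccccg
The matches began at bases 201 and 203. This motif was also chosen after the gene was seen, in place of a longer form searched first. On either strand, it was found in 4 of 26 windows of the oxidative phosphorylation list (15.4%) and in 2.71% of all 32851 windows, with no match in the windows of Ndufa1 and Cox7c.

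The difference between the groups also followed the number of exonic bases of the gene. These are the union of all its annotated exons and can exceed the length of the transcript present. Genes with at most 750 exonic bases had a median log2 difference of -0.81 over 176 genes, those of 2000 to 3000 bases -0.08 over 1829 genes, and those over 8000 bases 0.26 over 2283 genes. With any 1 library left out the shortest class lay between -1.27 and -0.54 and the longest between 0.03 and 0.32. Genes of nuclear chromosomes with under 1000 exonic bases took 1.78%, 1.58% and 1.7% of counts after psilocybin and 1.69%, 1.22% and 1.13% after MDMA, so MDMA replicate 1 lay within the psilocybin range. Atp5k has 616 exonic bases and Ndufa1 419, so they are in the shortest class. Within classes of similar exonic bases, all 33 oxidative phosphorylation genes lay below the median of their class. So did 26 of 28 choroid plexus genes and 23 of 35 ribosomal protein genes. Genes of the same class may still differ in transcript length. Bglap has 618 exonic bases and lay 6.29 above, but it reached the filter only in MDMA libraries and so had to differ. The other 8 osteoblast genes, without Bglap and Bglap2, were all fitted higher, with a median of 2.01. They were not set against the median of their length class. The part of length in each single gene's difference was not tested.

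**Figure D4:**
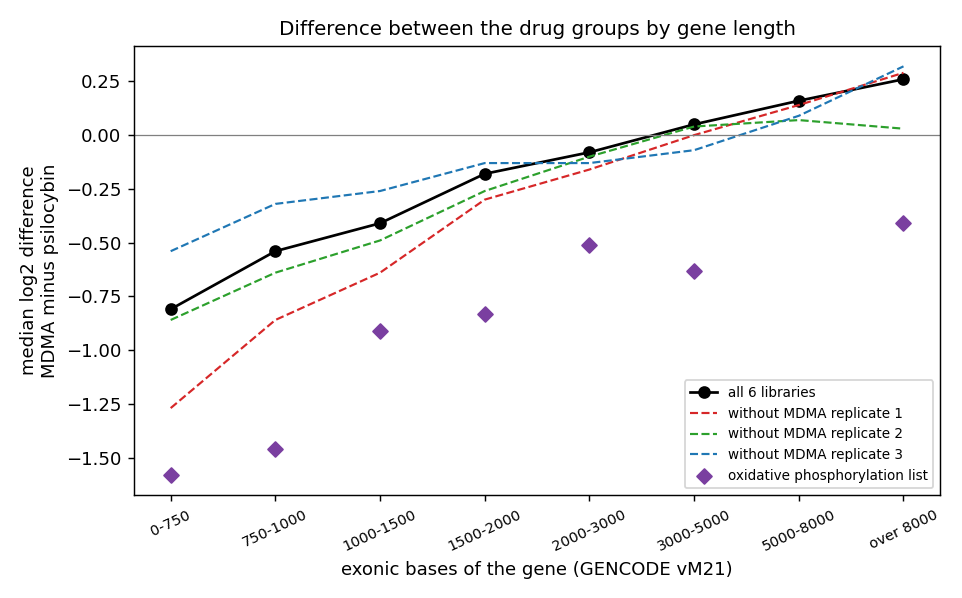
Median log2 difference (MDMA minus psilocybin) of genes grouped by exonic bases, for all 6 libraries (black) and with each MDMA library left out (dashed); diamonds are the medians of the oxidative phosphorylation genes in each class. The median goes from -0.81 in the shortest class to 0.26 in the longest, and the diamonds lie below the black line in every class that holds such genes.

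Stress hormone targets lay in both directions. Glucocorticoids act through the receptor Nr3c1 and induce a known set of genes. Zbtb16, a zinc finger gene strongly induced by steroids and named after its values were seen, stood at 19.5, 35.0 and 35.1 CPM after psilocybin and at 64.8, 130.4 and 92.9 CPM after MDMA (1.77 ± 0.42, interval 0.80 to 2.73). Fkbp5, the co-chaperone that dampens the receptor, stood at 37.6, 49.2 and 79.9 CPM and at 76.0, 167 and 277 CPM (1.68 ± 0.50, interval 0.55 to 2.82), overlapping by 1 library. Tsc22d3, an anti-inflammatory mediator called GILZ, stood at 699, 359 and 971 CPM and at 1097, 1111 and 1307 CPM (0.83 ± 0.37). The mean level of these 3 targets was higher after MDMA, but the metallothioneins Mt1 and Mt2 lay the other way: Mt1, which binds zinc, stood at 159.8, 345 and 226 CPM and at 127, 56.3 and 40.1 CPM (-1.69 ± 0.47, interval -2.75 to -0.62). Sgk1 and Dusp1, other targets, were fitted at -0.24 and -0.50. Over the list 16 of 22 tested genes were higher and 6 lower, with 3 and 2 wholly separated, against 8.58% and 7.91% of all genes, so the shares were near those of all genes. None passed the test in edgeR.

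Of 19 clock genes tested, 4 lay wholly above the psilocybin range after MDMA (against 8.58% of all genes) and none wholly below (against 7.91%). The 4 were Per2, a repressor of the clock at 26, 16.9 and 32.1 CPM against 47.1, 38.5 and 50.4 CPM, with Cry1, Nr1d2 and Hlf. The activators Arntl and Clock overlapped between the groups.

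The targets of the drugs themselves were sparse in these libraries. Only 11 of 30 listed genes of serotonin and monoamine handling passed the filter. Htr2c, the serotonin receptor of choroid plexus, stood at 351, 238 and 185 CPM after psilocybin and at 143, 306 and 106 CPM after MDMA (-0.38 ± 0.49, interval -1.51 to 0.74). Htr2a, the main receptor of psilocin, stood at 5.03, 0.769 and 1.23 CPM and at 4.21, 0 and 5.45 CPM and was not tested, nor was Slc6a4, the serotonin transporter on which MDMA acts, with at most 3.5 CPM. Maob, a monoamine oxidase, stood at 274, 173 and 164 CPM and at 133, 138 and 113 CPM (-0.63 ± 0.32, interval -1.36 to 0.11), without overlap. Maoa and Slc18a2, the vesicular monoamine transporter, differed by 0.45 ± 0.38 and 0.13 ± 0.51. Tph1, the enzyme that begins serotonin synthesis in the pineal gland and mast cells, stood at 570.1, 4586 and 1636 CPM and at 1027, 1161 and 2193 CPM. The high value of psilocybin replicate 2 came with 8773 CPM of pineal markers, against 1418 to 4074 CPM in the other 5 libraries. Tph1 is itself one of these markers, so its own 4586 CPM are part of that sum. The groups overlapped at Htr2c, Maoa, Slc18a2 and Tph1, and the intervals did not exclude a difference of up to 1 log2 unit in one direction or the other.

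**Figure D5:**
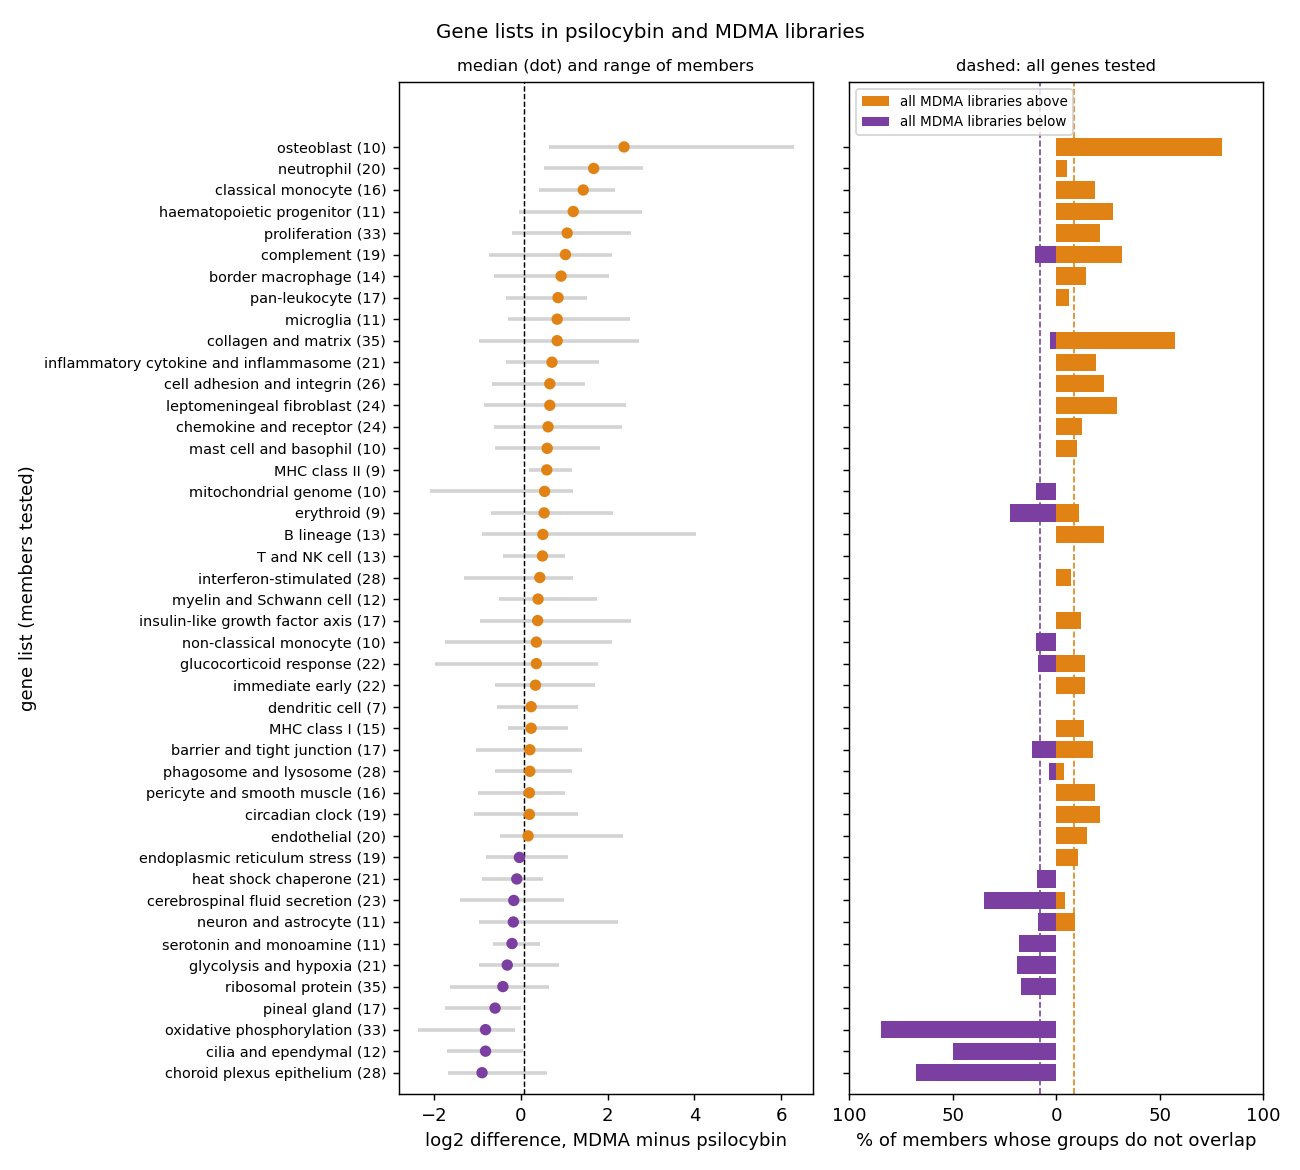
Left, the median (dot) and range (line) of the log2 difference, MDMA minus psilocybin, of the tested members of each of 44 gene lists, with the median of all genes, 0.07, as a dashed line. Right, the percentage of members whose groups do not overlap, orange where MDMA is higher and purple where it is lower, with dashed lines for all genes tested (8.58% and 7.91%); osteoblast genes reach a median of 2.38 and choroid plexus genes -0.89.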

How the data were processed

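The authors deposited raw read counts for each gene, without normalization. Per the submitters' processing notes, fastp 0.23.2, STAR 2.7.5c and featureCounts 2.0.1 were used with the mm10 build; the annotation release, strand setting and counting options are not stated, so antisense and overlapping genes are uncertain. The table's 3 columns that belong to none of these samples were left out. Symbols and positions came from GENCODE vM21 (54349 of 55401 identifiers), with exonic bases counted as the union of a gene's exons.

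Counts were scaled by TMM and tested with edgeR 4.0.16 (robust quasi-likelihood, group only) in R 4.3.3 on the 6 libraries, genes needing 5 CPM in 3 libraries, with Benjamini-Hochberg adjustment and a threshold of 0.05. Just inside this filter lay Jph1 and Rhof (third-highest value 5.032 CPM) and just outside Tcf15 and Spag4 (4.996). limma 3.58.1 and DESeq2 1.42.0 were alternatives, as were other scalings and filters, all 9 stressed libraries, a replicate block, and each library left out. The scripts were tested on simulated data. Lists were described by counts and medians, with no set test. Counts without genes that reached the filter only in libraries of 1 drug were added after seeing the data. Since no gene passed, named genes were the 10 with the smallest p in each direction, the 2 most abundant members of each of 44 lists and 24 followed genes; other list members, Zbtb16, Vdr and the genes of the closing section were named after their values were seen. The members and lists were chosen with earlier results of these data known.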

Additional observations from a re-analysis of the deposited data

How the results depend on the processing

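The count of 0 genes at an adjusted p of 0.05 in edgeR held with DESeq2 size factors, with library totals, with filterByExpr, with all 9 stressed libraries and with limma voom. It was 0 with each library left out in turn (0 to 0, in both directions; smallest adjusted p between 0.313 and 0.962) and 0 without psilocybin replicate 2 and MDMA replicate 2, a setting chosen after seeing the data. Without a filter on low counts edgeR called 368 of 30955 genes, 301 higher and 67 lower after MDMA, of which 150 were outside the filtered set. DESeq2 called 21, 15 higher and 6 lower, and without MDMA replicate 2, also chosen after seeing the data, 13, 10 higher and 3 lower. With the replicate number as a block, 0 genes were called (927 at an unadjusted p under 0.05, smallest adjusted p 0.411). The numbers were not taken to pair the samples, since no label says what a number marks. Same-numbered libraries correlated at 0.251, 0.0294 and 0.212 in their deviations, and differently numbered ones at -0.317 to 0.139. The values 0.251 and 0.212 were the highest of all pairs, but psilocybin replicate 2 correlated best with MDMA replicate 3 (0.139). Whether the numbers mark a pairing was not tested. Of 53 genes followed over 16 settings, 47 kept their sign.

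These log2 differences changed sign; the cause was not tested. Nr4a1 was -0.02 with DESeq2 size factors, -0.01 without a filter, -0.02 with DESeq2, -0.01 with voom, -0.02 with all 9 libraries, -0.01 with the block, and from -0.17 to 0.17 with 1 library left out. Slc18a2 was -0.19 with voom, -0.02 with the block, -0.41 without both replicates 2, -0.22 with DESeq2 without MDMA replicate 2, and -0.21 to 0.50 with 1 library left out. With 1 library left out, S100a8 ran from -0.43 (without MDMA replicate 1) to 2.79, Tph1 from -1.07 to 0.39 (without psilocybin replicate 2), Maoa from 0.12 to 0.66 and Igf2 from 0.04 to 0.42. Without both replicates 2, Tph1 was 0.43, Maoa -0.01 and Igf2 -0.03. With 3 libraries a group and a median standard error of 0.45, differences under 1 log2 unit were mostly not detectable. Far larger ones could also go uncalled: on the filtered genes edgeR did not call Bglap, at 6.29 (adjusted p of 0.182).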

Other observations

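Omp, the marker protein of mature olfactory neurons, stood at 74.6, 21 and 8.37 CPM in MDMA libraries 1 to 3 and at 0, 0.384 and 2.7 CPM after psilocybin (log2 difference 4.93 ± 1.16, adjusted p of 0.677 in edgeR). Stoml3, a protein of olfactory cilia and sensory neurons, stood at 72.0, 3.85 and 5.45 CPM in the MDMA libraries and reached 5.15 CPM after psilocybin. S100a5, an olfactory calcium-binding protein, reached 165 CPM in MDMA replicate 1 and at most 2.73 CPM in the other 5 libraries. Mobp, a myelin protein of oligodendrocytes, stood at 703, 6.64 and 4.87 CPM after MDMA and at 2.66, 2.69 and 3.92 CPM after psilocybin. Myelin basic protein, Mbp, stood at 3096, 168 and 565 CPM against 403, 394 and 301 CPM. The top value of each of these 5 genes was in MDMA replicate 1, and Omp and Mobp did not overlap between the groups. Omp reached the 5 CPM filter only in MDMA libraries and so had to differ, and Mobp did not pass the filter. The vehicle libraries held 0.276, 12.4 and 54.2 CPM of Omp. These genes were named after their values were seen.

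Fut4, a fucosyltransferase, stood at 6.73, 72.0 and 9.15 CPM after MDMA and at 1.48, 3.07 and 2.21 CPM after psilocybin, with the high value in MDMA replicate 2. Fut4 also reached the 5 CPM filter only in MDMA libraries and so had to differ. Defb11, a beta-defensin, lay the other way, at 12.3, 3.85 and 2.34 CPM against 61.6, 21.9 and 24.8 CPM, without overlap. Slc1a3, a glutamate transporter of glia, stood at 74.3, 59.5 and 29.0 CPM against 11.5, 9.22 and 15 CPM.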
